A study of Mus musculus with 4 samples.

Results

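The genes described here make heme, break it down, or move and store iron, and they were measured in total liver RNA of wild-type and PEPCK-TAg mice. The 10 genes were Alas1, Alas2, Alad, Urod, Fech, Hmox1, Tfrc, Trf, Fth1 and Ftl1, and every probe set whose single annotated gene symbol was one of these names was taken. That rule found 14 of the 12488 probe sets on the array, for 8 of the 10 genes. No value is given for Trf or Ftl1, for which the rule found no probe set. The array did hold 1 probe set annotated with Ftl1 among several symbols, which the rule left out. Of the 14, 11 were ordinary probe sets and 3 were control probe sets for Tfrc, which the array carries for quality checks and which stayed out of every test.

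All mice were B6SJL hybrid males aged 58 to 60 days that had been given a diet with 10% protein and 70% carbohydrate for 4 weeks from weaning. The wild-type group was non-transgenic, with 2 arrays. The PEPCK-TAg group, also with 2 arrays, carried a transgene in which the promoter of Pck1, the phosphoenolpyruvate carboxykinase gene active in hepatocytes, drives the large T and small t antigens of SV40. The series asks how long exposure to low levels of these viral proteins changes liver gene expression. The labels speak of duplicate measurements without naming the animals behind each array, so a p-value here reflects array-to-array spread that could be purely technical.

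Heme is built from glycine and succinyl-CoA by a chain of enzymes that starts and ends in the mitochondrion. The first step, made by 5-aminolevulinate synthase, limits the flux, and mammals have 2 genes for it: Alas1 in all tissues, held down by heme itself in liver, and Alas2 in developing red blood cells. The liver spends much of its heme on cytochrome P450 enzymes, takes iron up from transferrin, and keeps the surplus inside ferritin shells.

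Promoter stretches are shown for Alas2 and Alad, whose tested probe sets, after that of Alas1, had the widest gaps between the 2 wild-type arrays, and for Urod, which holds the same letters as Alad. Sequences were from RefSeq on build GRCm38.p6, which held promoter entries for 7 of the 10 genes. In Alas2, the 250 bases before the start on the plus strand (chrX:150547167-150547416) held 1 match to the binding letters of GATA factors, which drive red cell genes. The letters searched were GATAA or GATAG preceded by A or T, on either strand, and the match, in capitals, reads AGATAA on the opposite strand.
Alas2: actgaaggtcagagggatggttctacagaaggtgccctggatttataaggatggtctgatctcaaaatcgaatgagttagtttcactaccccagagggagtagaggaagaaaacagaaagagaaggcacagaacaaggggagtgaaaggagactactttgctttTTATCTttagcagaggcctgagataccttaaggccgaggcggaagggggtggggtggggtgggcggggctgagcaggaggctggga

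The 30-base stretches of Alad (chr4:62520151-62520180, minus strand) and Urod (chr4:116994445-116994474, minus strand) each held the E-box CACGTG, the letters bound by a family of helix-loop-helix factors, which read the same on both strands. Capitals mark the match.
Alad: gctccgaatgccCACGTGgaccccctcggg
Urod: cactggatcggtCACGTGgttctcaatatg

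Such matches are a description of the letters and not of binding. No window shown held more than 1 match. The windows of Alas1, which had the widest wild-type gap, and of Tfrc, Fth1 and Ftl1 held no match to either. Of 32851 promoter windows of 250 bases, 26.5% held a GATA match and 6.02% the E-box.

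None of the 8 genes passed the test between PEPCK-TAg and wild type, while the 2 synthase genes and Alad differed strongly between the 2 wild-type arrays. The signal is the MAS5 brightness of a probe set on a linear scale, and differences and their standard errors (SE) are in log2 of the signal plus 13. Of the 11 ordinary probe sets 9 passed a filter on dim values and were tested, with 1 Urod and 1 Tfrc probe set below it. With limma and Benjamini-Hochberg adjustment over 7453 probe sets, 0 of the 9 were higher and 0 lower at an adjusted p under 0.05, where 6.4% of all tested probe sets were higher and 3.07% lower, 9.47% in all. At an unadjusted p under 0.05 in the same limma fit, 1 of the 9 was higher (Hmox1) and 2 were lower (Alas2 and Fech), where 15.5% of all tested probe sets were higher and 11.0% lower. Both PEPCK-TAg arrays lay below both wild-type arrays in 5 of the 9 probe sets and above them in 1, where the share of all tested probe sets was 26.3% below and 30.2% above, 56.5% in all. The 5 include both Fth1 probe sets. By gene, each read from its probe set of highest mean, 4 of 8 lay below and 1 above, beside 26.7% and 31.2% of all tested genes. Over the 11 ordinary probe sets, filtered or not, the median log2 difference was -0.14, beside 0.0053 over all 12422.

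**Figure D1:**
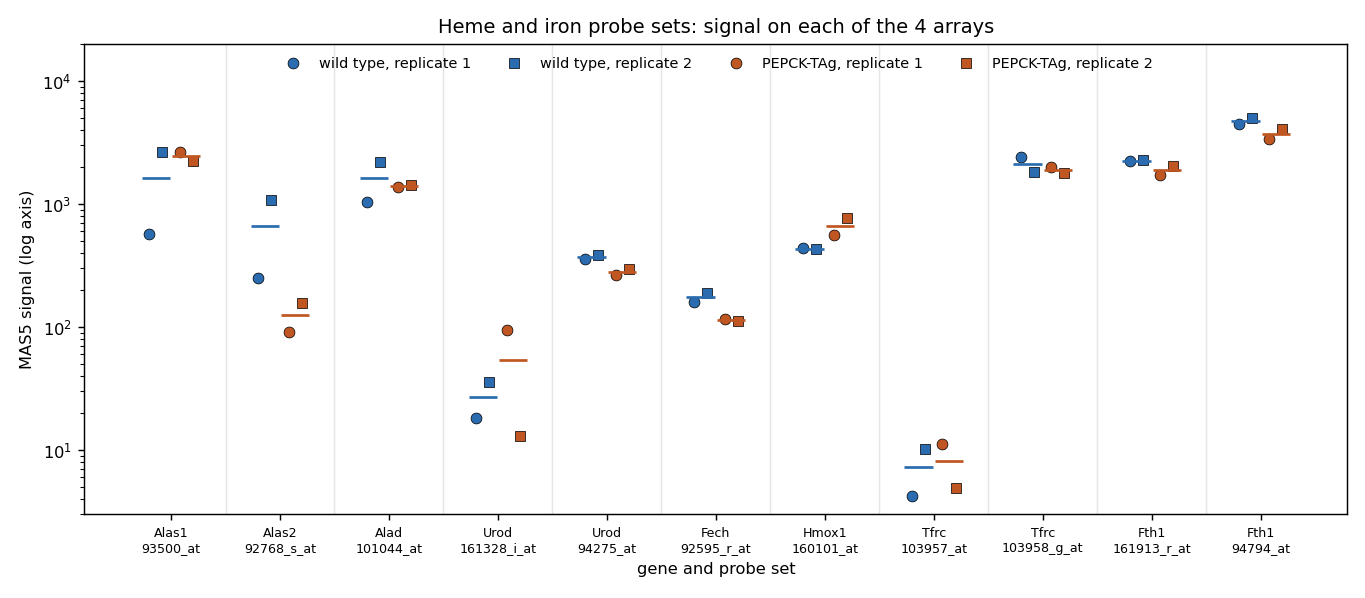
MAS5 signal (log axis) of the 11 ordinary probe sets on each array, blue for wild type and orange for PEPCK-TAg, circles for replicate 1, squares for replicate 2 and short lines for group means. Wild-type replicate 1 stands far below wild-type replicate 2 for Alas1 and Alas2, and Hmox1 is the only tested probe set with both PEPCK-TAg arrays on top.

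Alas1, the synthase gene of the liver, was low on 1 array and alike on the other 3. Its signal was 570.5 on the first and 2673 on the second wild-type array, against 2637 and 2253 in PEPCK-TAg (replicate 1 before 2 here and in each pair that follows). The groups overlapped, because wild-type replicate 2 was the highest array and wild-type replicate 1 the lowest. Group means were 1622 ± 1487 in wild type and 2445 ± 271 in PEPCK-TAg (SD, n = 2 each). The log2 difference of 0.97 ± 0.62 (SE) had a 95% interval from -0.52 to 2.46 and did not pass (limma, adjusted p = 0.384). Its sign and size rested on which wild-type array was kept: the difference was -0.13 without wild-type replicate 1 (limma, adjusted p = 0.727) and 2.07 without wild-type replicate 2, where it passed (limma, adjusted p = 0.00682).

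Alas2, the red cell synthase gene, was lower on both PEPCK-TAg arrays, and its wild-type arrays lay as far apart as the groups. Its signal was 250.2 and 1073 in wild type against 91.0 and 157 in PEPCK-TAg, with no overlap. The lower wild-type array was closer to the higher PEPCK-TAg array than to the other wild-type array. The means were 661 ± 582 and 124 ± 47.0 (SD, n = 2 each), a ratio of 5.33 of wild type over PEPCK-TAg. The log2 difference was -2.01 ± 0.62 (SE, 95% interval -3.48 to -0.53), with a limma adjusted p of 0.0968 and an unadjusted p of 0.0152. Without wild-type replicate 1 it was -3.03 (limma, adjusted p = 0.0104), and without wild-type replicate 2 it was -0.98 (limma, adjusted p = 0.140). The suffix of this probe set marks sequence that other transcripts can share.

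No tested marker of red blood cells fell past the threshold, and Alas2 itself did not pass it. Of 29 erythroid genes listed, 16 were on the array and 11 were tested. Of these 1 rose, Car2, a carbonic anhydrase gene that other cells also use, and 0 fell, with a list median of 0.18 that lay between -0.0050 (without PEPCK-TAg replicate 1) and 0.19 over the alternatives, beside 6.83% higher and 3.01% lower over all 5650 tested genes and a median of 0.015. The alpha globin gene Hba-a1 measured 799.6 and 1409.6 in wild type against 656 and 823 in PEPCK-TAg. It was higher on wild-type replicate 2 than on wild-type replicate 1, as Alas2 was, by a ratio of 1.76 against 4.29 for Alas2. The beta globin gene Hbb-b2 measured 185 and 373 in wild type against 288 and 351 in PEPCK-TAg, and the groups overlapped in both globin genes. Hba-a1 differed by -0.52 ± 0.28 and Hbb-b2 by 0.26 ± 0.32 (log2 difference ± SE), with limma adjusted p of 0.292 and 0.667. Klf1, a transcription factor gene of red cell precursors, measured 124 and 162 in wild type against 143 and 183.5 in PEPCK-TAg. The summed signal of the 11 tested erythroid genes was 2341 and 3039 in wild type against 3176 and 2893 in PEPCK-TAg. Without Car2 the sum of the other 10 was 2206 and 2890.3 in wild type against 2123 and 2382 in PEPCK-TAg. Both PEPCK-TAg sums lay below the higher wild-type sum and 1 of them below both. Hba-a1 alone gave 799.6 and 1409.6 of this in wild type against 656 and 823 in PEPCK-TAg. These sums therefore lean on 1 gene and do not show a fall across the list. Among the 11 tested erythroid genes the groups were apart with PEPCK-TAg higher in 2 and with PEPCK-TAg lower in 0. The shares among all tested genes were 31.2% higher and 26.7% lower. Gata1, Tal1, Epb42, Car1 and Rhd were below the filter, and none of the 16 was at 0. Lower PEPCK-TAg values with the groups apart were therefore seen only among these dim, untested genes. Car1, a carbonic anhydrase gene, measured 29.8 and 60.6 in wild type against 17.1 and 14.6 in PEPCK-TAg, with wild-type replicate 2 the highest as for Alas2. Tal1, a transcription factor gene of blood cell precursors, measured 18.3 and 15.7 in wild type against 4.40 and 3.70 in PEPCK-TAg. The groups were also apart, with PEPCK-TAg lower, for Epb42, at 17.8 and 15.6 against 15.5 and 13.6 on its brighter probe set and the other way on its dimmer one, but not for Gata1 or Rhd. The part of red blood cells in the Alas2 difference was not tested. In bulk liver, fewer cells of a type and less RNA per cell cannot be told apart.

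Alad encodes the enzyme of the next step, which joins a pair of aminolevulinate molecules. It repeated the wild-type split of Alas1 at a smaller size. Its signal was 1042 and 2207 in wild type against 1376 and 1431 in PEPCK-TAg. Both PEPCK-TAg arrays lay between the wild-type arrays. The log2 difference was -0.11 ± 0.33 (SE, 95% interval -0.89 to 0.67, limma adjusted p = 0.868). It was -0.65 without wild-type replicate 1 and 0.42 without wild-type replicate 2, and neither fit passed (limma, adjusted p = 0.0982 and 0.206).

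The split between the wild-type arrays was large beside that of other probe sets. On the log2 scale, wild-type replicate 2 minus replicate 1 was 2.20 for Alas1, 2.04 for Alas2 and 1.07 for Alad. Among 7453 tested probe sets, 0.201% had a wild-type gap at least as large as that of Alas1 in either direction, 0.255% as large as that of Alas2 and 2.67% as large as that of Alad. The median absolute gap was 0.23 between the wild-type arrays and 0.19 between the PEPCK-TAg arrays. Wild-type replicate 2 was the higher array in 47.4% of tested probe sets, so the array as a whole was not brighter. The other tested synthesis enzymes did not split as widely: the wild-type gap was 0.096 for Urod and 0.24 for Fech. For the middle enzymes it was 0.055 for Uros, 0.22 for Ppox, and -0.019 and 0.43 for the brighter and dimmer Cpox probe sets. For Hmox1, which breaks heme down, the gap was -0.02. Between the PEPCK-TAg arrays the gap was -0.23 for Alas1, 0.71 for Alas2 and 0.056 for Alad.

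**Figure D2:**
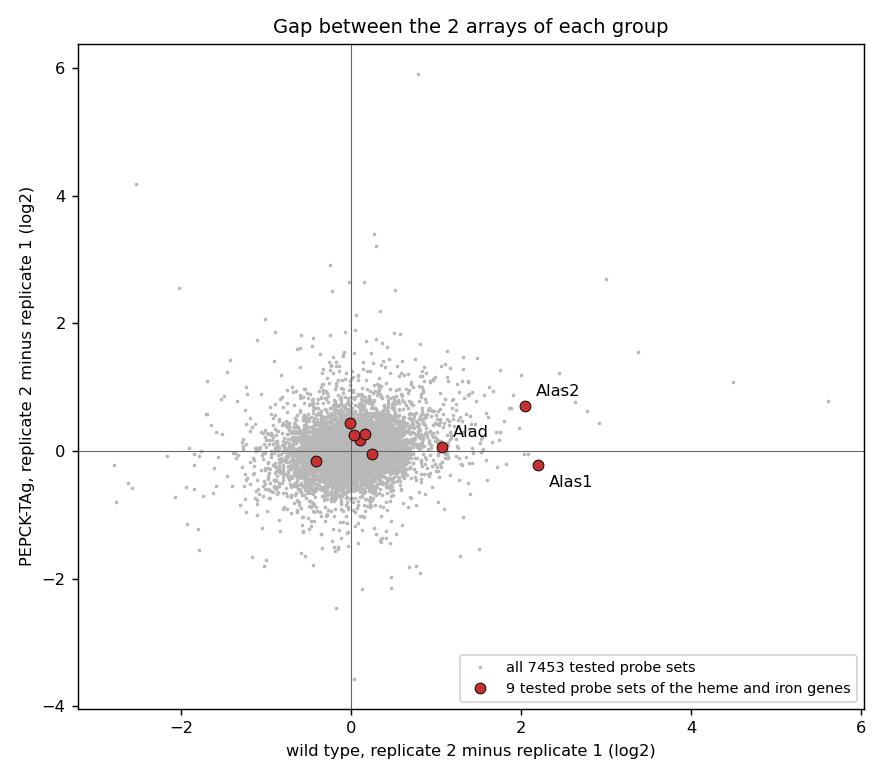
Gap between the 2 arrays of each group, in log2 (replicate 2 minus replicate 1), wild type on the horizontal and PEPCK-TAg on the vertical axis, for all 7453 tested probe sets (grey) and the 9 of the heme and iron genes (red). Alas1 and Alas2 lie at 2.20 and 2.04 on the wild-type axis and Alad at 1.07, while the other 6 red points lie within the grey cloud.

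The later enzymes Urod and Fech were lower on both PEPCK-TAg arrays by small amounts that did not pass. Urod, uroporphyrinogen decarboxylase, trims the side chains of the ring. Its signal was 360.1 and 386 in wild type against 263 and 298 in PEPCK-TAg, with the groups apart. The log2 difference was -0.40 ± 0.17 (SE, 95% interval -0.79 to 0.0042, limma adjusted p = 0.192). The other Urod probe set, which was below the filter and whose suffix marks a reduced probe number, measured 18.3 and 36.0 in wild type against 94.9 and 13 in PEPCK-TAg, in no order.

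Fech encodes ferrochelatase, which inserts iron into the ring in the last step. Its probe set, whose suffix marks relaxed probe design rules, had a signal of 159 and 191 in wild type against 116 and 111 in PEPCK-TAg. The lowest wild-type array lay above both PEPCK-TAg arrays, and the means were 175 ± 22.1 and 114 ± 3.25 (SD, n = 2 each). The log2 difference was -0.56 ± 0.19 (SE, 95% interval -1.02 to -0.11), with a limma adjusted p of 0.122 and an unadjusted p of 0.0223. It stayed between -0.68 and -0.44 in the fits that left out 1 array. Of 18 tested genes typical of hepatocytes, 1 (Apoa2) fell, 0 rose and 17 did not pass, beside 3.01% of all tested genes called lower. Both PEPCK-TAg arrays lay below both wild-type arrays in 14 of the 18, beside 26.7% of all tested genes, and the list's median was -0.46, beside 0.015. Their summed signal was 121265 to 138658 in wild type and 89803 to 102570.3 in PEPCK-TAg. The part of hepatocyte RNA in the lower Urod and Fech signals was not tested.

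Hmox1 encodes the inducible heme oxygenase, which opens the heme ring and frees its iron, and is strong in macrophages that digest red cells. It was the only tested probe set of the 9 with both PEPCK-TAg arrays above both wild-type arrays. Its signal was 438 and 432 in wild type against 562 and 765 in PEPCK-TAg. The wild-type arrays were almost level, and the gap lay between the PEPCK-TAg arrays. The means were 435 ± 4.31 and 663 ± 144 (SD, n = 2 each), a ratio of 1.53. The log2 difference was 0.58 ± 0.19 (SE, 95% interval 0.11 to 1.04), with a limma adjusted p of 0.121 and an unadjusted p of 0.0218, and leaving out a PEPCK-TAg array gave 0.80 (replicate 1) or 0.36 (replicate 2). The constitutive oxygenase gene Hmox2 measured 118 and 91.2 in wild type against 97.8 and 107 in PEPCK-TAg.

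Some macrophage markers rose, while Hmox1 itself did not pass. Of 19 tested Kupffer cell and macrophage genes, 7 rose and 0 fell, beside 6.83% and 3.01% of all tested genes. In 14 of the 19 each PEPCK-TAg array exceeded each wild-type array, beside 31.2% of all tested genes. The list's median was 1.08, beside 0.015, and it was 0.58 without wild-type replicate 1 and 1.67 without wild-type replicate 2. The count of rises fell to 4 without wild-type replicate 1 or without the trend in eBayes, to 3 without the filter or without PEPCK-TAg replicate 2, and was 11 without wild-type replicate 2. Their summed signal was 4735 and 8164 in wild type against 13677 and 18425 in PEPCK-TAg, and 16 of the 19 were higher on wild-type replicate 2 than on wild-type replicate 1. Hmox1 did not show that wild-type step. The part of macrophages in its difference was not tested.

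Neither Tfrc, for iron uptake, nor Fth1, for iron storage, differed past the threshold. Tfrc encodes the transferrin receptor of most cells, whose level usually follows a cell's need for iron. Its bright probe set, whose suffix marks probes that can bind a group of related transcripts, measured 2423 and 1813 in wild type against 2005 and 1797 in PEPCK-TAg. The groups overlapped, and the log2 difference was -0.14 ± 0.18 (SE, 95% interval -0.58 to 0.29, limma adjusted p = 0.687), with a sign that turned with quantile normalization (0.032), cyclic loess (0.0003) and without wild-type replicate 1 (0.066). The other Tfrc probe sets were dim. The second ordinary one measured 4.20 and 10.3 in wild type against 11.3 and 4.90 in PEPCK-TAg. Of the 3 control probe sets, that for the 3' end of Tfrc measured 52.1 and 41.8 in wild type against 41.3 and 56.6 in PEPCK-TAg. The middle one measured at most 3.70 and the 5' one at most 15.9 on any array. These values did not separate the groups except for the middle probe set, with 3.10 and 3.70 against 1.90 and 3. Dividing cells often carry more transferrin receptor. Of 21 of their genes on the array 4 were below the filter, and the 17 tested all rose, with a median of 2.70. Of all tested genes 6.83% were higher, with a median of 0.015. The filter used the mean of all 4 arrays, so genes dim in wild type could pass it through their PEPCK-TAg values. The brighter Mki67 probe set measured 5.80 and 8.70 in wild type against 672 and 431 in PEPCK-TAg. The other Mki67 probe set did not share this, at 99.1 and 81.9 against 70.1 and 75.1. The part of dividing cells in the Tfrc values was not tested.

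Fth1 encodes the ferritin heavy chain, which oxidizes iron for storage. Both of its probe sets were lower on both PEPCK-TAg arrays, and neither passed. The brighter one measured 4452.5 and 4995 in wild type against 3405 and 4076 in PEPCK-TAg, a log2 difference of -0.34 ± 0.15 (SE, 95% interval -0.70 to 0.023, limma adjusted p = 0.213). The other, whose suffix marks relaxed probe design rules as that of Fech does, measured 2225 and 2274.5 in wild type against 1713 and 2041 in PEPCK-TAg. Its log2 difference was -0.27 ± 0.15 (SE, 95% interval -0.63 to 0.098, limma adjusted p = 0.325). Both probe sets gave the same order of arrays within PEPCK-TAg, replicate 2 above replicate 1. With quantile normalization their differences were -0.066 and -0.083, and with cyclic loess -0.11 and -0.12.

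**Figure D3:**
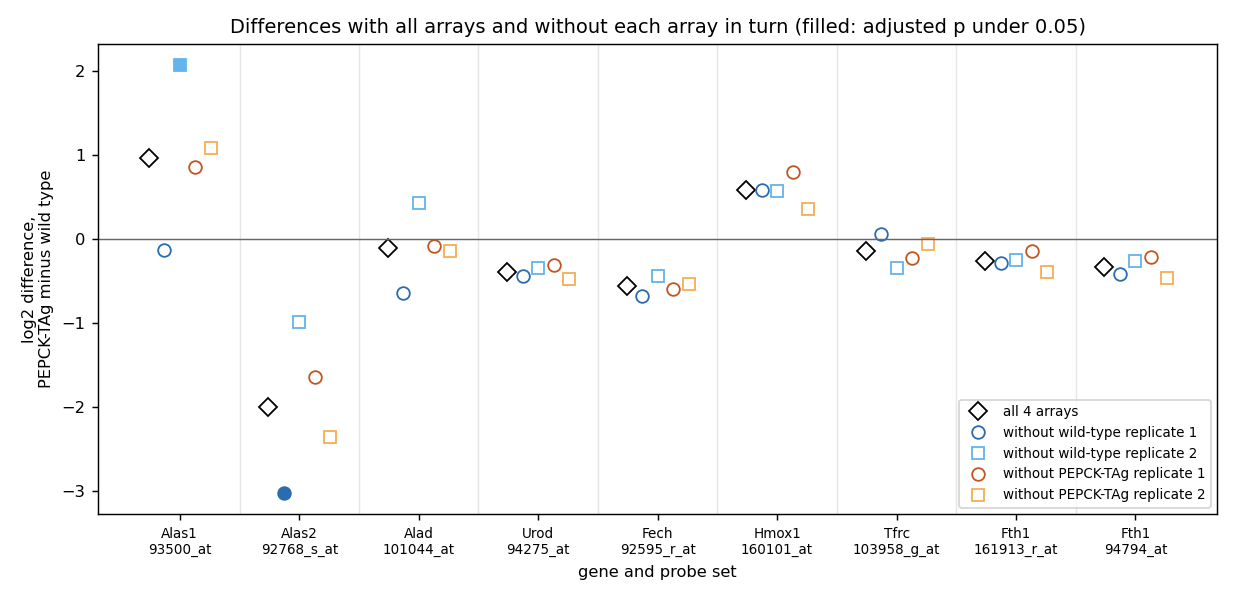
Log2 difference, PEPCK-TAg minus wild type, of the 9 tested probe sets with all 4 arrays (diamonds) and without each array in turn (circles for replicate 1 left out, squares for replicate 2, blue for wild type and orange for PEPCK-TAg), filled where the limma adjusted p was under 0.05. Alas1 runs from -0.13 to 2.07 and Alas2 from -3.03 to -0.98, while Urod, Fech, Hmox1 and both Fth1 probe sets keep their sign in each fit.

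Among 75 further genes of heme and iron metabolism, 51 were on the array and 45 were tested, with each gene read from its probe set of highest mean. Of the 45, 2 rose, 4 fell and 39 did not pass (limma, adjusted p under 0.05), beside 6.83% and 3.01% of all 5650 tested genes, 9.84% in all. Their median log2 difference was -0.23, -0.37 with median centring and -0.12 with cyclic loess, beside 0.015 over the tested genes. Only the calls of Lcn2 and Slc46a1 held in each of the 4 fits that left out an array. Those of Abcb10, Nr1d1 and Bach1 held in 1 of these fits each, and that of Tfr2 in 0.

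Of 7 tested genes in the list of other heme synthesis genes, 2 fell and 0 rose, beside 3.01% and 6.83% of all tested genes. Abcb10, a mitochondrial inner membrane transporter needed for heme synthesis, measured 148 and 201 in wild type against 77.4 and 79.9 in PEPCK-TAg (log2 difference -1.02 ± 0.22 SE, limma adjusted p = 0.0360). Among the fits that left out an array its call held only without wild-type replicate 1, with a limma adjusted p of 0.0838 to 0.110 in the other 3, and it was lost without the filter (limma, adjusted p = 0.0873) and left out of the test by the stricter filter. Nr1d1 encodes REV-ERB alpha, a heme-binding clock repressor that represses the gene of a coactivator of Alas1. It measured 293.5 and 368 in wild type against 113.5 and 178 in PEPCK-TAg (log2 difference -1.13 ± 0.25 SE, limma adjusted p = 0.0371). Among the fits that left out an array its call held only without PEPCK-TAg replicate 2, with a limma adjusted p of 0.0667 to 0.111 in the other 3, and it was lost without the filter (limma, adjusted p = 0.0801) and with eBayes without a trend (0.0618). That coactivator gene, Ppargc1a, was below the filter. The middle enzymes Uros, Cpox and Ppox differed by -0.26, -0.14 and -0.24 in log2 with limma adjusted p of 0.376, 0.720 and 0.482. Slc25a39, a mitochondrial carrier, differed by -0.49 and Tspo, an outer membrane protein that binds porphyrins, by 0.42 (limma, adjusted p = 0.132 and 0.141).

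Of 11 tested genes for breaking down, scavenging and carrying heme, 1 rose and 1 fell, beside 6.83% and 3.01% of all tested genes. Slc46a1, a folate carrier that also moves heme, measured 284.5 and 397 in wild type against 95.4 and 77.5 in PEPCK-TAg (log2 difference -1.82 ± 0.22 SE, limma adjusted p = 0.00637). Bach1 encodes a heme-sensing repressor of Hmox1. It measured 377 and 367 in wild type against 744 and 598 in PEPCK-TAg, so that it and Hmox1 were both higher on both PEPCK-TAg arrays (log2 difference 0.82 ± 0.18 SE, limma adjusted p = 0.0353). Among the fits that left out an array its call held only without PEPCK-TAg replicate 2, with a limma adjusted p of 0.0895 to 0.150 in the other 3. It was also lost without the filter, with quantile normalization, with median centring and with eBayes without a trend (limma, adjusted p = 0.0577, 0.0510, 0.0681 and 0.0630). The other Bach1 probe set, below the filter, measured 14.5 and 34.4 in wild type against 10.6 and 10.2 in PEPCK-TAg. Blvra, biliverdin reductase of the step after heme oxygenase, measured 273 on each wild-type array and 358 and 404 in PEPCK-TAg, a log2 difference of 0.46 with a limma adjusted p of 0.139. The plasma scavengers of hemoglobin and heme did not pass: haptoglobin (Hp) differed by -0.03 ± 0.15 and hemopexin (Hpx) by -0.077 ± 0.12 (SE), with limma adjusted p of 0.923 and 0.752, and the other Hpx probe set by 0.40 (limma, adjusted p = 0.121). Lrp1, the receptor for hemopexin-bound heme, differed by -0.56 with a limma adjusted p of 0.0657 that was 0.0392 with median centring.

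Of 10 tested genes of iron import, export and storage, 1 rose and 1 fell, beside 6.83% and 3.01% of all tested genes. Lcn2, lipocalin 2, which binds iron carriers of bacteria, measured 29.0 and 19.1 in wild type against 688 and 879.9 in PEPCK-TAg (log2 difference 4.43 ± 0.22 SE, limma adjusted p = 0.000643). Its wild-type values lay below the lowest mean signal kept by the filter, 48.1, so it was tested only because of its PEPCK-TAg values. The other Lcn2 probe set did not share this difference, with a log2 difference of 0.046 (limma, adjusted p = 0.916). Tfr2, the transferrin receptor of hepatocytes that senses iron, measured 885 and 875 in wild type against 587 and 489 in PEPCK-TAg (log2 difference -0.70 ± 0.17 SE, limma adjusted p = 0.0469). Its limma adjusted p was between 0.0690 and 0.215 in the 4 fits that left out an array, 0.0552 with cyclic loess, 0.0659 without the filter and 0.0830 with eBayes without a trend. Ncoa4, which delivers ferritin for breakdown, measured 1558 and 1492 in wild type against 941 and 1057 in PEPCK-TAg, a log2 difference of -0.61 with a limma adjusted p of 0.0549 that was 0.0288 with median centring. The macrophage iron transporter gene Slc11a1 measured 128 and 188.5 in wild type against 214 and 331 in PEPCK-TAg (limma, adjusted p = 0.153). Ceruloplasmin (Cp), the plasma ferroxidase, differed by -0.063 ± 0.12 (SE).

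Of 11 tested genes of iron sensing and hepcidin control, 0 rose and 0 fell in the limma test, also at an unadjusted p under 0.05. Among all tested genes 6.83% were higher and 3.01% lower at the adjusted threshold, and 16.6% and 11.3% at the unadjusted one. With so few genes, a count of 0 at the adjusted threshold lies near these shares. Hamp, which encodes the iron hormone hepcidin, was dim, at 85.8 and 50.5 in wild type against 48.1 and 40.8 in PEPCK-TAg (log2 difference -0.47 ± 0.32 SE, limma adjusted p = 0.413). The gene of the iron regulatory protein Ireb2, which controls ferritin and transferrin receptor mRNA, measured 384 and 393 in wild type against 319.6 and 329 in PEPCK-TAg (limma, adjusted p = 0.368). Of 6 tested genes of mitochondrial iron and iron-sulfur clusters, 0 rose and 0 fell in the limma test, also at an unadjusted p under 0.05, beside the same shares. The cysteine desulfurase gene Nfs1 differed by -0.33 and the assembly factor gene Nubp1 by 0.34 in log2, both with a limma adjusted p of 0.252.

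**Figure D4:**
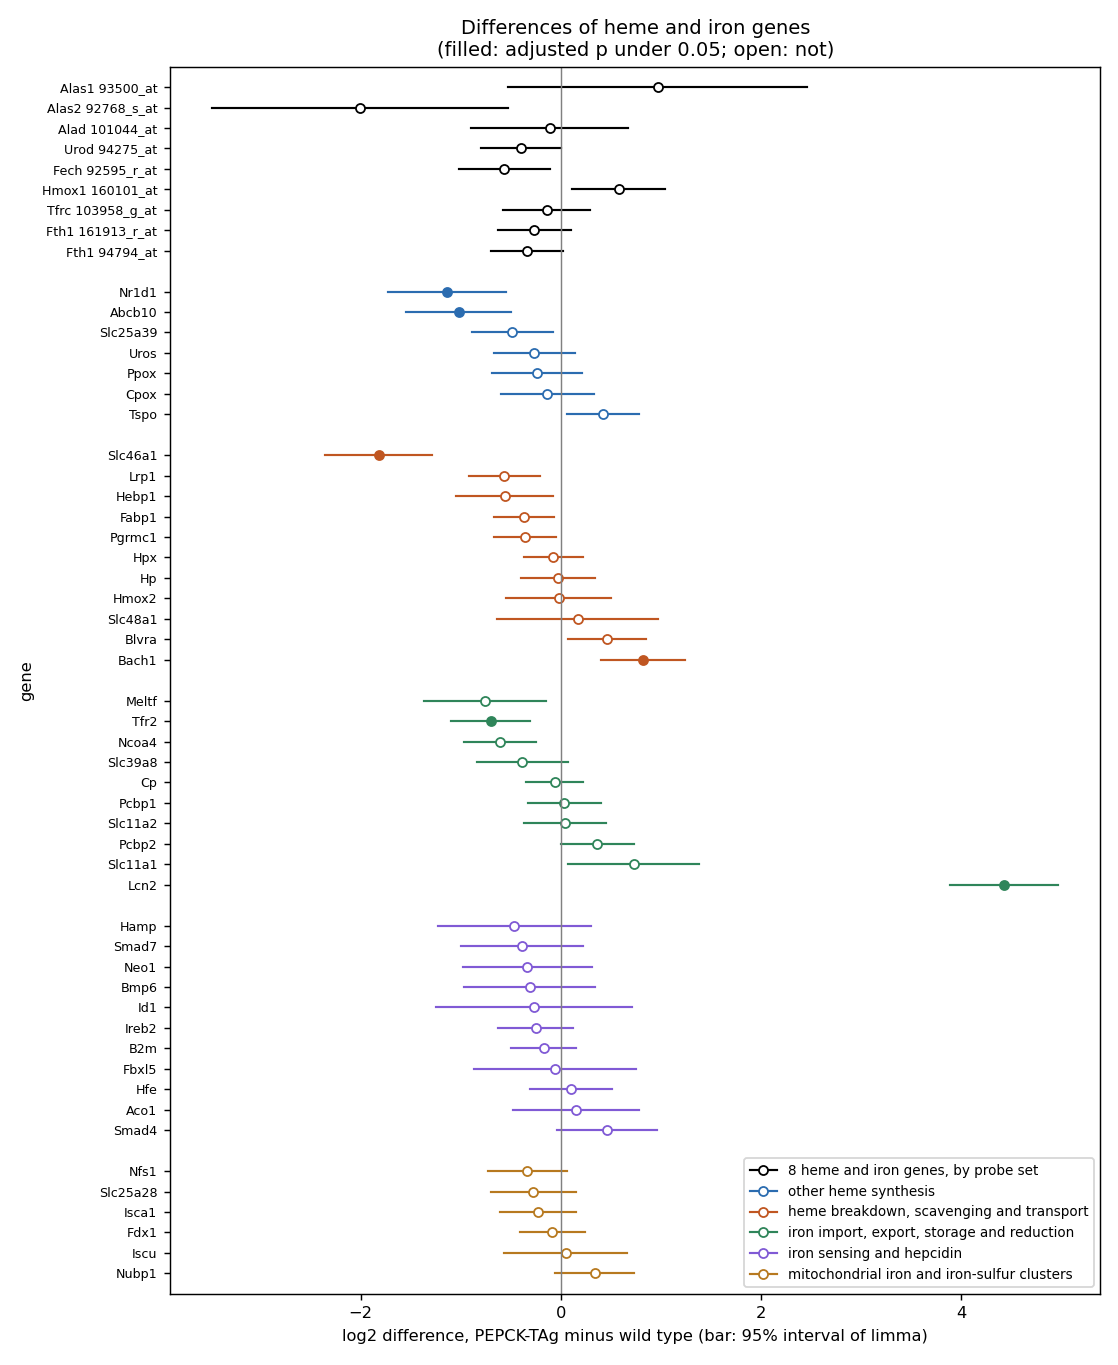
Log2 difference, PEPCK-TAg minus wild type, with its 95% interval from limma, for the 9 tested probe sets of the heme and iron genes (black) and 45 further genes in 5 lists (colours), filled where the limma adjusted p was under 0.05. None of the black points is filled, and the filled ones are Nr1d1, Abcb10, Slc46a1, Tfr2, Bach1 and Lcn2.

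Over the whole array 477 probe sets rose and 229 fell. Of the marker lists not yet given, 0 of 11 endothelial genes passed the limma threshold (3 lower at an unadjusted p under 0.05, median -0.49), where 16.6% of all tested genes were higher and 11.3% lower at that unadjusted p. Of 11 tested stellate cell and matrix genes 1 rose (Col3a1), and of 4 tested genes in the bile duct list 3 rose (Krt8, Krt18 and Anxa4). Bulk liver signals do not show which cells made these transcripts, so no rise of bile duct cells is read from them. A further 3 stellate cell and matrix genes and 4 bile duct genes were below the filter. Of all tested genes 6.83% were called higher and 3.01% lower. In limma, 0 of 5 lymphocyte genes were called, with 1 higher and 1 lower at an unadjusted p under 0.05, and 0 of 3 genes from pancreas, fat and muscle were called, also at an unadjusted p under 0.05. Alb, the albumin gene that defines hepatocytes, measured 16723 and 14430 in wild type against 13339 and 12446 in PEPCK-TAg.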

How the data were processed

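Each array's deposited values are MAS5 signal intensities, linear and 1 per probe set, as the submitters' processing notes name them. No source used here gives the MAS5 version, its scaling target or detection calls. The trimmed mean intensity was 250.2 on each of the 4 arrays, so no further scaling was applied. The experiment files hold instrument records only. The number of arrays limits the precision.

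Signals were analysed as log2(signal + 13). Of 12422 non-control probe sets, those with a mean at or above the 40th percentile (7453) were tested with limma 3.58.1 in R 4.3.3 (lmFit, eBayes with a mean-variance trend), two-sided, with Benjamini-Hochberg adjustment at 0.05. A fold on this scale understates changes of dim genes. An exact permutation test of 2 against 2 arrays cannot go below p = 0.333. The procedure was also run on simulated data in which probe sets of like brightness shared the same spread. No simulated probe set had a replicate split of its own, as Alas1 and Alas2 had. The simulation therefore cannot show how reliable calls are for such probe sets. Symbols came from the platform annotation (10833 probe sets with 1 symbol, 396 with several, 1193 with none).

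Every probe set that the single-symbol rule found for the 10 genes was given. From the other heme and iron lists, called genes, up to 4 more of smallest p, and Hamp, Slc40a1, Tfr2, Lcn2, Hp and Hpx where the array holds them were eligible for naming. From marker lists, up to 4 called genes and each globin gene were eligible. Hmox2, Ppargc1a, Klf1, Mki67, Alb, Cp, the middle synthesis enzymes and the dim erythroid genes were named outside that rule, after their values were seen. The genes and lists were chosen with earlier results of these data known. Alternatives changed the offset, filter, scaling, prior, replicate block, array set and choice of probe set.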

Additional observations from a re-analysis of the deposited data

How the results depend on the processing

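Over 117 values of the 9 tested probe sets under alternatives, 3 passed where the reported value did not and 5 changed sign. The 3 were Alas2 with the replicate block (limma, adjusted p = 0.00485) and without wild-type replicate 1 (-3.03), and Alas1 without wild-type replicate 2 (2.07), so the count of called probe sets was 1 lower, 1 lower and 1 higher there, against 0. The sign changed for Alas1 without wild-type replicate 1 (-0.13), Alad without wild-type replicate 2 (0.42), and Tfrc with quantile normalization (0.032), cyclic loess (0.0003) and without wild-type replicate 1 (0.066). Leaving out an array gave -0.65 to 0.42 for Alad and -0.35 to 0.066 for Tfrc. Of 26 values of the 2 dim, untested probe sets, 4 changed sign: Urod without PEPCK-TAg replicate 1 (-0.59 against 0.44), and Tfrc with median centring (-0.085 against 0.059) and with replicate 1 of wild type (-0.16) or of PEPCK-TAg (-0.16) left out. The cause was not tested.

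Of the further heme and iron genes, 2 rose and 4 fell. The higher count was 1 without the filter, with quantile normalization, with median centring and with eBayes without a trend, and 1 to 2 when an array was left out. The lower count was 1 without the filter, 2 with eBayes without a trend, 7 with the replicate block and 1 to 2 when an array was left out. Slc25a39, Lrp1, Slc11a1 and Ncoa4 passed with the replicate block (limma, adjusted p = 0.0457, 0.0476, 0.0336 and 0.0361), where 14 of the macrophage markers rose against 7. Over the whole array the lower count of 229 was 105 without the filter, 409 with median centring, 117 with eBayes without a trend, 444 with the replicate block and 94 to 147 when an array was left out, and the higher count of 477 was 294 to 401 when an array was left out. Median centring shifted the median of all tested probe sets to -0.14, and its split was 403 higher and 409 lower. Same-numbered arrays shared only a number in the labels: their deviations from the group means correlated with r = 0.181 over the tested probe sets, and the replicate block left 1 residual degree of freedom, as did each fit that left out an array, where a lone array was taken to vary like the other group. Dim probe sets of Urod, Tfrc and Hamp give little information on direction.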

Other observations

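Of the 7453 tested probe sets, 15 had a gap between the wild-type arrays at least as large as that of Alas1, and 10 of these, Alas1 included, were higher on wild-type replicate 2. Cyp4a14 and Cyp4a10, which encode fatty acid hydroxylases that hold heme, were among them, chosen for naming after their values were seen. Cyp4a14 measured 39.2 and 2543 in wild type against 254 and 444.5 in PEPCK-TAg. Cyp4a10 measured 95.4 and 2432 in wild type against 352 and 757 in PEPCK-TAg. Vnn1, a pantetheinase gene, measured 138 and 1126 in wild type against 989.7 and 1342 in PEPCK-TAg. On PEPCK-TAg these genes did not share 1 order with Alas1, which stood near its higher wild-type value on both arrays, as Vnn1 did. Both Cyp4a genes and Cyp26a1 stood between their wild-type values, and Cyp2b9 stood above both of its own. A link to heme use was not tested.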
